A study of Mus musculus with 10 samples.

Results

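The 10 DNA glycosylase genes other than Ung were examined in single-cell RNA from the spleens of 5 BXD2 mice. The members were taken by name, as the rows Neil1, Neil2, Neil3, Mpg, Ogg1, Mutyh, Nthl1, Smug1, Tdg and Mbd4, and all 10 were found among the 31053 genes of the matrices. BXD2 is a recombinant inbred mouse strain that forms germinal centres (GCs) and autoantibodies without immunization. The groups were 3 BXD2-p19-/- mice (2 females, p19-/- 1 and 2, and 1 male, p19-/- 3), which lack the p19 subunit of the cytokine interleukin-23, and 2 female BXD2 wild-type (WT) mice, WT 1 and 2. Each mouse gave 1 RNA library. The labels used here state no age, sort or batch. No label says from how many litters or capture days the mice came, so that p-values cover the spread between these mice only.

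DNA glycosylases begin base excision repair: each recognises certain damaged or mispaired bases and cuts the bond between base and sugar, after which the abasic site is cleaved, filled and sealed. Neil1, Neil2, Neil3 and Nthl1 remove oxidised pyrimidines and related lesions. Ogg1 removes oxidised guanine, and Mutyh removes the adenine that was mispaired with it. Mpg removes alkylated purines and hypoxanthine. Smug1 removes uracil and some oxidised pyrimidines, whereas Tdg and Mbd4 act on thymine or uracil opposite guanine, and Tdg also on oxidised forms of 5-methylcytosine. In GC B cells cytosine in antibody genes is deaminated to uracil, and Ung is the glycosylase best known for processing that uracil there. GC B cells divide in the dark zone and are selected by T cells in the light zone.

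The promoters of Neil1, Mbd4 and Neil3 are shown for reasons described further on. Among the 8 classes compared, these members were highest in GC B-like cells in each mouse. They were also called both between zone ends and between S and G2/M cells. Each sequence is the RefSeq window from 250 bases before to 50 bases after an annotated start, in the build GRCm38.p6, 5′ to 3′ on the gene's strand. Capitals mark matches on either strand to any of the motifs searched. The motifs included the E2F-type form TTTGGCG with the variants spelled TTTCCCG, also TTTGCCG, and finally TTTCGCG. The others were the CHR element TTTGAA of genes expressed late in the cycle, the CCAAT box, the E-box CAGGTG and a further E-box, CAGCTG. No base lay in more than 1 match in these windows. Neil1 lies at chr9:57148256-57148555, Mbd4 at chr6:115853292-115853591 and Neil3 at chr8:53639016-53639315, all on the minus strand.
Neil1: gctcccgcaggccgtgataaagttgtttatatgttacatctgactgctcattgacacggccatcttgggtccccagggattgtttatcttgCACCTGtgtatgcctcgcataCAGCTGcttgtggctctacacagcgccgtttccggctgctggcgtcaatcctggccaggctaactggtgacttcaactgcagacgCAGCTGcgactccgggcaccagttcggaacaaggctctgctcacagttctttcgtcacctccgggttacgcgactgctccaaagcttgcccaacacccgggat
Mbd4: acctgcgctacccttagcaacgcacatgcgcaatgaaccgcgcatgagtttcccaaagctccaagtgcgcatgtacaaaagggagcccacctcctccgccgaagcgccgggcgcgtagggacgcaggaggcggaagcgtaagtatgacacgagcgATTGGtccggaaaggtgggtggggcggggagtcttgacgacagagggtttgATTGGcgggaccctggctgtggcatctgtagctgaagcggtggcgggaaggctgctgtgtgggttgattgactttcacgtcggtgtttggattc
Neil3: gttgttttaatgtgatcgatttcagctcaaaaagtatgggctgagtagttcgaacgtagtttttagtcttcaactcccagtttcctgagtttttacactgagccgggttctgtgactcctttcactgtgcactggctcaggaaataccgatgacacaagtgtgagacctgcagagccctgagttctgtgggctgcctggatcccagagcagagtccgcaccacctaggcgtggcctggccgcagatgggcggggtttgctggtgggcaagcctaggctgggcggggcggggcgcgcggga

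The Neil1 window held 1 match to CAGGTG, read on the opposite strand, and 2 matches to CAGCTG, and the Mbd4 window held 2 matches to CCAAT, both on the opposite strand. The Neil3 window held none of the motifs searched. Of all 32851 mouse promoter windows of this length, 33.0% held at least 1 of the E-boxes, 37.4% held CCAAT, 17.9% held the CHR element and 6.70% held any of the E2F-type forms. These matches describe letters in a window and were not tested as binding sites.

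The 5 libraries held 11355 cell barcodes and between 7712457 and 18093053 unique molecular identifiers (UMIs, each a counted RNA molecule) per mouse, and 9200 cells remained after filtering. In p19-/- 1, 891 of 2474 barcodes had over 10% mitochondrial UMIs, against 140 to 380 in the other libraries, and 312 of the 570 cells of a B cell cluster that no marker list named came from it. Libraries shared 68 barcodes. Il23a, which encodes p19, had 0 UMIs in the kept cells of all 5 mice, WT included, so that it does not check the genotype labels. Clusters were named from marker genes and are called "-like" for that reason. The labels name B and T cells of the spleen as the source, and the libraries also held myeloid cells. The classes comprised 3044 GC B-like, 617 mature non-GC B-like, 236 plasma cell-like, 3465 CD4 T-like (Tfh-like, Treg-like and other), 259 CD8 T-like and 570 macrophage- or monocyte-like cells. In the unit used here, CPM, a gene's UMIs are given per 1000000 UMIs of that class in that mouse. In such sums, fewer cells with a transcript and less of it per cell cannot be told apart.

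Neil1, Mbd4 and Neil3 were highest in GC B-like cells in each of the 5 mice among the 8 classes compared, Neil2 was nearly absent from them, and Ogg1 means lay within 7.91 to 17.6 CPM in all classes. Over the 5 mice, in the order p19-/- 1 to 3, WT 1, WT 2, Neil1 in GC B-like cells stood at 271, 386, 307, 421 and 418 CPM. In CD4 T-like cells the values of Neil1 were 27.9, 33.0, 27.5, 30.5 and 29.2 CPM, so that no GC B-like value came near a CD4 T-like one. The order of the Neil1 means was GC B-like 360.5 ± 67.8 CPM (SD, n = 5), plasma cell-like 59.9 ± 27.8, mature non-GC B-like 49.7 ± 28.5, Tfh-like 33.1 ± 4.43, Treg-like 29.2 ± 6.37, other CD4 T-like 20.7 ± 5.23, CD8 T-like 11.9 ± 5.05 and macrophage- or monocyte-like 5.84 ± 3.32. Of these neighbours, GC B-like exceeded plasma cell-like cells in 5 of 5 mice and other CD4 T-like exceeded CD8 T-like cells in 5 of 5, and the other neighbours crossed in at least 1 mouse. In cells thinned to 2000 UMIs, 50.9% of GC B-like cells had a Neil1 UMI (95% Clopper-Pearson interval 49.0 to 52.8%, 1445 of 2839 cells, counting error only). In macrophage- or monocyte-like cells, which served as the background, the share was 1.73% (0.474 to 4.37%, 4 of 231 cells). Cells with fewer UMIs were left out, 339 of the 570 macrophage- or monocyte-like and 205 of the 3044 GC B-like cells. Without thinning the shares were 83.7% and 1.40%, at median depths of 9753 and 1604 UMIs.

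Mbd4 followed the same order at the top. Its GC B-like values were 111, 154, 143, 146 and 137 CPM, and its values in CD4 T-like cells 6.15, 8.91, 12.8, 10.7 and 11.3 CPM. The mean was 138 ± 16.6 CPM (SD, n = 5) in GC B-like, 29.5 ± 7.0 in plasma cell-like and 27.7 ± 3.01 in mature non-GC B-like cells, and between 6.25 and 11.4 CPM in the T and myeloid classes. GC B-like exceeded plasma cell-like cells in 5 of 5 mice, and mature non-GC B-like exceeded macrophage- or monocyte-like cells in 5 of 5. Neil3, a glycosylase expressed mainly in dividing cells, gave 37.5, 35.4, 39.0, 53.4 and 50.5 CPM in GC B-like cells and at most 2.68 CPM in the CD4 T-like cells of any mouse. The CD4 T-like class leaves out 69 T-like cells of a cluster that no marker list named. Its top genes included the cycle genes Tyms and Rrm2, and its Neil3 level was not read. In mature non-GC B-like cells Neil3 rested on 8 UMIs in all. The 39 erythroid-like cells, too few for a test and not among the 8 classes, held 15 UMIs of Neil1 and 8 of Neil3. Their levels were 150.5 ± 163 CPM of Neil1 (SD, n = 5, range 30.4 to 424.5) and 79.7 ± 121 CPM of Neil3 (0 to 290). The Neil3 mean and the highest value of each gene lay above those of GC B-like cells.

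The classes were built from other genes of the same cells, with all 10 members and the rest of the repair list left out of the clustering. The tests between classes therefore describe these classes, and most genes differ between them. By edgeR's quasi-likelihood test with mouse as a block and Benjamini-Hochberg adjustment, Neil1 was higher in GC B-like than in CD4 T-like cells by 3.83 ± 0.09 on the log2 scale (± SE; adjusted p = 3.4e-12) and Mbd4 by 3.98 ± 0.10 (adjusted p = 4.3e-12), each in 5 of 5 mice, as were 29.4% of all tested genes. In that comparison 7 of the 10 members were called higher and 2, Neil2 and Smug1, lower, and 79.9% of 11094 tested genes were called. Neil3, with 25 UMIs in CD4 T-like cells, and Neil2, with 7 in GC B-like cells, passed the filter on low counts through the class in which they are high, so that their calls add nothing to their levels and no fitted fold is given. Tdg rose by 1.37 ± 0.10, Mutyh by 1.62 ± 0.22 and Mpg by 0.67 ± 0.15 on that scale, and Smug1 fell by 0.90 ± 0.24. The fit pooled the genotypes. Mpg means in GC B-like and CD4 T-like cells were 42.69 and 22.92 CPM in p19-/- mice and 64.65 and 62.95 CPM in WT mice. The pooled Mpg difference thus lay mainly in the p19-/- mice. Nthl1 had 37 UMIs in CD4 T-like cells, below the filter of the genotype test there, and no fitted fold of it is given. Ogg1 alone was not called (-0.10 ± 0.16, adjusted p = 0.55).

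Against mature non-GC B-like cells, a comparison within the B lineage in which 53.2% of 9822 genes were called, 5 of the 9 tested members were called higher in GC B-like cells and none lower. These were Neil1 (2.84 ± 0.18), Mbd4 (2.18 ± 0.12), Tdg (0.88 ± 0.14), Mpg (0.44 ± 0.15, adjusted p = 0.025), all log2 differences from edgeR's test, and Neil3, which passed the filter through GC B-like cells and has 8 UMIs in the other class. For that reason no fitted fold of Neil3 is given here. The Mpg call was lost with doublets kept (adjusted p = 0.051), at Leiden resolution 1.6 (0.070), without p19-/- 1, 2 or 3 or WT 2 (0.055 to 0.089) and without the mouse block (0.22). Ogg1, Mutyh, Nthl1 and Smug1 did not pass, with log2 differences from -0.57 to 0.47. Neil1 stood in the mature non-GC B-like cells at 13.4% ± 6.54 of its GC B-like level (SD, n = 5 mice), and Mbd4 at 20.4% ± 3.93. In CD4 T-like cells Neil1 stood at 8.41% ± 1.34 of its GC B-like level and Mbd4 at 7.17% ± 1.49.

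Plasma cell-like cells differed from GC B-like cells in 3 members, and 48.9% of all tested genes were higher in GC B-like cells in 5 of 5 mice. Neil1 (1.91 ± 0.29), Mbd4 (1.6 ± 0.17) and Neil3, which had few UMIs in plasma cell-like cells, were called higher in GC B-like cells and no other of the 8 tested members passed, where 37.8% of 9699 genes were called. Mpg stood at -0.05 ± 0.19 on the log2 scale between the classes, and the Mpg levels of plasma cell-like cells ran from 12.2 to 48.0 CPM. Against macrophage- or monocyte-like cells, 6 of 10 members were called higher in GC B-like cells and Neil2 lower, with 67.2% of 10665 genes called. Mutyh, with 2 UMIs in the macrophage- or monocyte-like cells, and Neil2 passed the filter through 1 class. Neil1, Mbd4 and Tdg rested on 9, 17 and 20 UMIs in the macrophage- or monocyte-like cells, below the filter of the genotype test there. No fitted fold of these genes is therefore given. Their means in GC B-like and macrophage- or monocyte-like cells were 360.5 and 5.84 CPM for Neil1. They were 138 and 11.35 CPM for Mbd4, and 43.7 and 15.1 CPM for Tdg.

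Neil2 had the opposite distribution. It gave 0, 1, 5, 1 and 0 UMIs in the GC B-like cells of the 5 mice, although these held 3415297 to 11038473 UMIs, and 1 UMI in all mature non-GC B-like cells. In CD4 T-like cells it stood at 7.38, 5.77, 5.76, 5.70 and 6.51 CPM, above the GC B-like level in every mouse, an arrangement found for 48.6% of tested genes. In macrophage- or monocyte-like cells p19-/- 1 and 2 had 0 UMIs of Neil2, p19-/- 3 had 1, and WT 1 and WT 2 had 4 and 5.

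Tdg was highest by mean in GC B-like cells, at 44.8, 49.5, 42.8, 39.3 and 41.9 CPM, with means of 15.1 to 28.4 CPM elsewhere. Reads of Tdg can be shared with its pseudogenes Tdg-ps and Tdg-ps2, so its counts are uncertain to that extent. Ogg1 was lowest in plasma cell-like and highest in Tfh-like cells by mean, and no neighbours in its order were apart in every mouse. Mutyh was led by GC B-like cells at 8.44 ± 1.26 CPM, above the CD8 T-like cells next in order in 5 of 5 mice. Nthl1 stayed at 1.64 to 5.07 CPM in all classes, and Smug1 at 1.75 to 8.40 CPM, with Tfh-like cells highest.

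**Figure D1:**
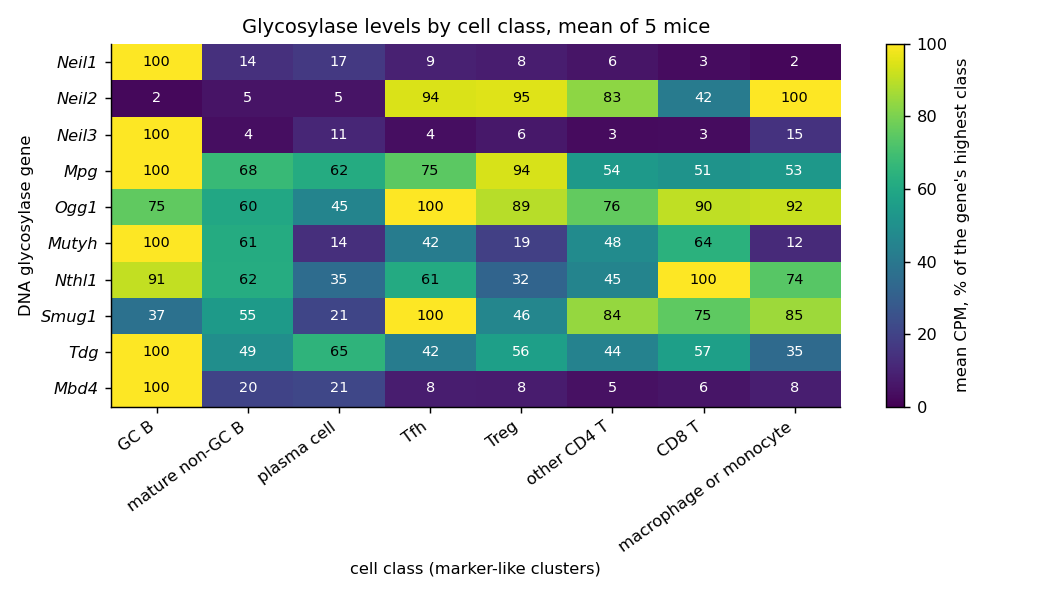
Heat map of the mean level of each glycosylase gene (rows) in 8 cell classes (columns), averaged over 5 mice and given as a percent of that gene's highest class (0 to 100, printed in each cell). Neil1, Neil3 and Mbd4 fall to 21.4% or less of their GC B-like mean in every other class, Neil2 stands at 2.33% in GC B-like cells, and Ogg1, Mpg and Smug1 are spread over B, T and myeloid classes.

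Among the other 29 base excision repair genes, 22 were called higher and 3 lower in GC B-like against CD4 T-like cells, where 79.9% of all genes were called, with a median log2 difference of 1.02 beside -0.07 over all tested genes. Against mature non-GC B-like cells 18 were called higher and 3 lower, where 53.2% of all genes were called, with a median of 0.77 beside -0.02. The largest were Pole, a replicative polymerase subunit (3.08 ± 0.30), Lig1, the replicative ligase (2.80 ± 0.16), Rfc1, a clamp loader subunit (2.34 ± 0.12), and Fen1, the flap endonuclease (2.23 ± 0.13). Among those lower were Parp3 (-0.61 ± 0.14) and Pold1 (-0.49 ± 0.08). Against plasma cell-like cells 16 were called higher and 0 lower, beside 37.8% of all genes called, and against macrophage- or monocyte-like cells 22 and 0, beside 67.2%.

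By Pearson correlation of log2(CPM + 1) over 50 sums of a class in a mouse, which share libraries and differ widely in depth, the gene most like Neil3 among 8327 was Rad51ap1 (r = 0.84), followed by Fignl1, Mybl2, Esco2 and Anln. Psmc1 was most like Neil1 (r = 0.79), Nek2 most like Mbd4 (r = 0.78) and Eny2 most like Mpg (r = 0.88). These values are descriptions of the class sums.

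Neil1 and Mbd4 were concentrated at the dark end of GC B-like cells, Neil3 in cells in cycle, and Nthl1, Tdg and Mpg were higher at the light end. Within every mouse the GC B-like cells were ordered by the level of dark zone genes less that of light zone genes, none of them a member, and 1 in 3 cells at each end (the dark end and the light end) was summed. Both ends are ranges of a score, not cell types. At the dark end Neil1 stood at 499, 689, 431, 616 and 645 CPM, and at the light end at 94.4, 169.5, 143, 235 and 180.5 CPM. Every dark value of Neil1 lay above every light value, and 22% of tested genes were higher at the dark end in 5 of 5 mice. The difference was 1.81 ± 0.11 on the log2 scale (edgeR's quasi-likelihood test with mouse as a block, adjusted p = 1.6e-06).

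Mbd4 stood at 172, 211, 191, 200 and 189 CPM at the dark end and at 71.2, 92.2, 90.3, 97.2 and 82.2 CPM at the light end, again without overlap. Its log2 difference was 1.14 ± 0.06 (edgeR adjusted p = 7.4e-07). Of the 9 tested members 3 were called higher at the dark end, the other being Neil3 (0.83 ± 0.14), and 3 lower, and 40.8% of 9565 tested genes were called. The members called higher at the light end were Nthl1, Tdg (-0.53 ± 0.09) and Mpg (-0.43 ± 0.08). Tdg gave 32.8, 43.0, 36.25, 32.2 and 33.7 CPM in the dark and 55.7, 53.8, 51.3, 46.8 and 49.0 CPM at the light end. Nthl1 rested on 28 dark and 81 light UMIs in all, with means of 2.635 and 5.884 CPM. At the dark end it was below the filter of the genotype test, so that no fitted fold of Nthl1 is given here. With cycle genes added to the dark list the differences were 1.04 for Neil1, 0.77 for Mbd4 and 1.55 for Neil3, still called. The calls of Nthl1, Tdg (-0.02) and Mpg (-0.27) were then lost (adjusted p = 0.18, 0.92 and 0.056 in edgeR's test). The Nthl1 call was also lost in DESeq2 (adjusted p = 0.10).

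The ends also differed in cycle stage: 49.5% of dark-end cells were assigned to G2/M and 28.8% to S, against 41.4% and 41.0% of light-end cells. Neil1 was therefore also read in low-cycle cells alone, where p19-/- 1 had 9 cells per end and no test was made. There its dark-end levels were 834, 645, 469, 689 and 729 CPM and its light-end levels 208, 429, 179, 411 and 398 CPM, higher at the dark end in 5 of 5 mice. Mbd4 in the same low-cycle ends stood at 194, 156, 164, 207 and 140 CPM in the dark and 115, 150, 203, 150 and 152 CPM at the light end, and the ends overlapped.

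By stage, Neil3 rose steeply with the cycle. The low-cycle cells gave 0, 0, 0, 2.39 and 2.28 CPM of Neil3, on 4 UMIs in all. S-phase cells gave 24.4, 23.3, 33.1, 38.0 and 38.7 CPM, and G2/M cells 49.5, 61.6, 51.9, 76.1 and 63.6 CPM. G2/M exceeded S in 5 of 5 mice, by 0.91 ± 0.10 on the log2 scale (edgeR adjusted p = 5.8e-05). Against low-cycle cells Neil3 passed the filter through the S and G2/M cells, so that no fitted fold or p is given for it there. In CD4 T-like cells, where fewer than 10 cells of a stage were present in some mice, Neil3 was not tested by stage: 5 of its 25 UMIs lay in low-cycle cells.

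Neil1 and Mbd4 were lower in S than in low-cycle or G2/M cells. Neil1 stood at 438, 586, 355, 577 and 647 CPM in low-cycle, 197, 325, 255, 346 and 359 CPM in S and 303, 406, 340, 437 and 437 CPM in G2/M cells. In each mouse S was lowest and low-cycle highest. Among tested genes 21.5% were lower in S than in low-cycle cells in 5 of 5 mice, 19.1% lower in G2/M than in low-cycle cells and 17.3% lower in S than in G2/M cells. The log2 differences were -0.73 ± 0.08 for S against low-cycle, -0.37 ± 0.08 for G2/M against low-cycle and -0.39 ± 0.05 for S against G2/M, all called by edgeR's test (adjusted p = 6.5e-06, 0.0031 and 9.5e-05). Mbd4 was also lowest in S, by -0.58 ± 0.09 against low-cycle and -0.51 ± 0.05 against G2/M cells, and did not pass between G2/M and low-cycle (-0.10 ± 0.10, adjusted p = 0.49). Low-cycle cells had a median of 5703 UMIs, against 11397 in S and 11531 in G2/M cells, and the part of depth in these levels was not tested.

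In S against low-cycle cells 1 of the 7 tested members was called higher and 2 lower, with 41.7% of 8391 genes called. In G2/M against low-cycle cells 2 of 8 were called higher and 1 lower, with 38.1% of 8497 called. The second of those higher was Mutyh, with 11 low-cycle and 179 G2/M UMIs. It passed the filter through the G2/M cells, so that no fitted fold or p is given for it there. Between S and G2/M, where 27.9% of 9774 genes were called, Nthl1 was the 1 member of 9 higher in S (0.64 ± 0.22, adjusted p = 0.046) and Neil3, Mbd4 and Neil1 were lower. The Nthl1 call was lost in DESeq2 (adjusted p = 0.42), without any 1 mouse (adjusted p = 0.056 to 0.18) and in most other settings. Mpg did not pass between any 2 stages, with log2 differences of 0.07 to 0.22, nor did Ogg1, Smug1 or Tdg.

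Of the other 29 repair genes, 17 were called higher and 3 lower in S against low-cycle cells, where 41.7% of all genes were called, led by Ung (4.07 ± 0.21), Pole (3.82 ± 0.27), Lig1 (3.68 ± 0.16) and the clamp Pcna (3.06 ± 0.11). By zone 3 were called higher at the dark end (Pold4, Xrcc1 and Rfc1) and 8 lower, which is near the 40.8% of all genes called there. Among the lower were Apex1, the main abasic site nuclease (-1.53 ± 0.09), and Ung (-1.09 ± 0.13). In both comparisons the signs of Neil1 and Mbd4 were opposite to that of Ung.

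**Figure D2:**
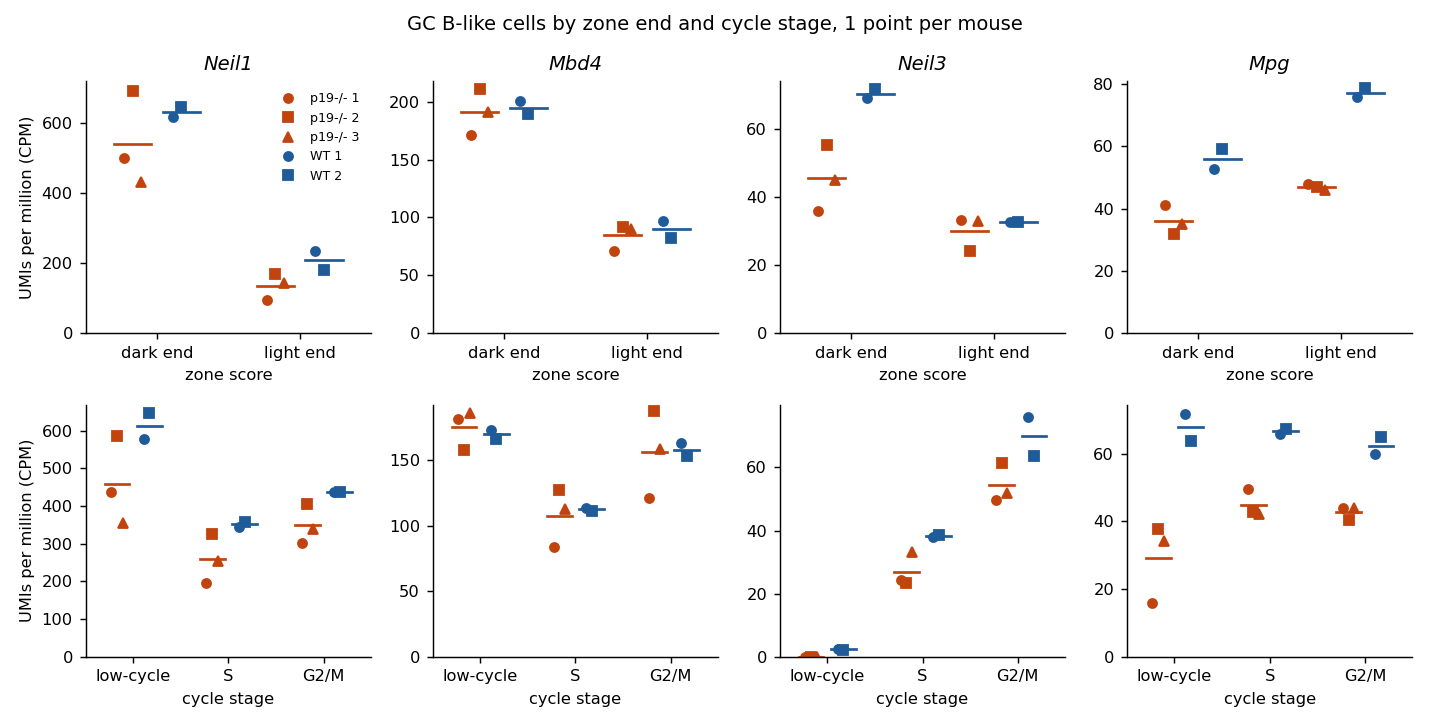
Levels of Neil1, Mbd4, Neil3 and Mpg (CPM) in GC B-like cells, by zone end in the upper row and by cycle stage in the lower row. Each point is 1 mouse, coloured by genotype, and bars are genotype means. Dark ends lie above light ends for Neil1 and Mbd4 in every mouse, Neil3 climbs from near 0 in low-cycle to 49.5 to 76.1 CPM in G2/M cells, and the WT points of Mpg lie above the p19-/- points in each panel.

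Mpg was called lower in p19-/- than in WT mice in CD4 T-like cells and each of their kinds, and its group mean was lower in all 8 classes. In CD4 T-like cells Mpg stood at 20.9, 26.7 and 21.1 CPM in the 3 p19-/- mice and at 63.0 and 62.9 CPM in the 2 WT mice, on 168 and 410 UMIs. The groups did not overlap, every p19-/- mouse being below as for 13.7% of tested genes, and the p19-/- mean of 22.9 ± 3.30 (SD, n = 3) compared with 63.0 ± 0.14 (n = 2). The log2 fold change was -1.47 ± 0.14 (edgeR's quasi-likelihood test, Benjamini-Hochberg adjusted p = 0.00036), a level 2.77-fold lower. Of the 8 members tested in CD4 T-like cells Mpg was the 1 called, and 0.748% of 10158 genes were called. The call of Mpg was kept with each mouse left out in turn, with log2 fold changes of -1.56 to -1.41.

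The gap was present within each kind of CD4 T cell. In Tfh-like cells, which help GC B cells, Mpg stood at 19.4, 29.7 and 20.5 against 56.5 and 66.0 CPM (-1.42 ± 0.19, adjusted p = 0.0026; 0.676% of 9017 genes called). In Treg-like cells, the regulatory class, it stood at 24.1, 38.1 and 25.9 against 87.2 and 66.5 CPM (-1.41 ± 0.25, adjusted p = 0.0068; 0.771% of 7914 genes called). In other CD4 T-like cells the values were 22.8, 7.31 and 13.2 against 48.4 and 46.6 CPM (-1.76 ± 0.37, adjusted p = 0.047; 0.594% of 6392 genes called). All 3 are edgeR results, and in each class every p19-/- mouse lay below every WT mouse. The Tfh-like call was lost without WT 2 (adjusted p = 0.063), the Treg-like call without WT 1 (adjusted p = 0.20) and the other CD4 T-like call without any 1 of the 5 mice (adjusted p = 0.071 to 0.31), while the fold changes stayed between -2.18 and -1.20.

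In GC B-like cells Mpg stood at 44.5, 41.3 and 42.2 against 63.5 and 65.8 CPM, on 779 and 1199 UMIs. The groups did not overlap and differed by more than their spread (42.7 ± 1.64, SD, n = 3, against 64.6 ± 1.68, n = 2). The log2 fold change of -0.63 ± 0.09 did not pass over all genes in edgeR's test (adjusted p = 0.11, unadjusted p = 0.00016), where 0.019% of 10514 genes, or 2, were called. No member was called in GC B-like cells by edgeR, against 3 at an unadjusted p under 0.05 (Mpg, Neil3 and Neil1; 8.39% of all genes were), and DESeq2's Wald test called 1, Mpg (adjusted p = 0.0012). Without the filter on low counts edgeR called 3 (Mpg, Neil3 and Neil1).

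The remaining classes pointed the same way with wider errors. Mature non-GC B-like cells gave 27.4, 18.4 and 29.6 against 59.0 and 39.4 CPM of Mpg (-0.94 ± 0.28, edgeR adjusted p = 0.93; 0.0545% of genes called). CD8 T-like cells gave 9.30, 6.43 and 24.6 against 44.9 and 46.9 CPM (-1.72 ± 0.60, adjusted p = 0.9995, edgeR); of the genes tested there edgeR called 0% and DESeq2 5, and 159 had an unadjusted p under 0.05 in edgeR's test. Macrophage- or monocyte-like cells gave 18.65, 27.3 and 12.9 against 35.5 and 43.0 CPM on 40 UMIs and were below the filter for a test. Without 1 mouse the mature non-GC B-like value ranged from -1.22 to -0.61. In these 3 classes the groups did not overlap either. Plasma cell-like cells gave 12.2, 48.0 and 24.8 against 32.7 and 41.0 CPM, and the groups overlapped (-0.77 ± 0.39, edgeR adjusted p = 0.93; 0.0614% of genes called). Mpg was thus lower in every p19-/- mouse than in either WT mouse in 7 of 8 classes that share no cells, although the classes of 1 mouse share its library. Among all tested genes the groups were apart in this direction for 10.8% in GC B-like, 8.96% in mature non-GC B-like, 3.07% in plasma cell-like and 13.8% in Tfh-like cells. The share was 12.3% in Treg-like, 10.3% in other CD4 T-like, 9.34% in CD8 T-like and 12.9% in macrophage- or monocyte-like cells. These are shares of single classes. The share of genes apart in 7 of 8 classes was not counted, and classes of the same mice are not independent replicates.

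**Figure D3:**
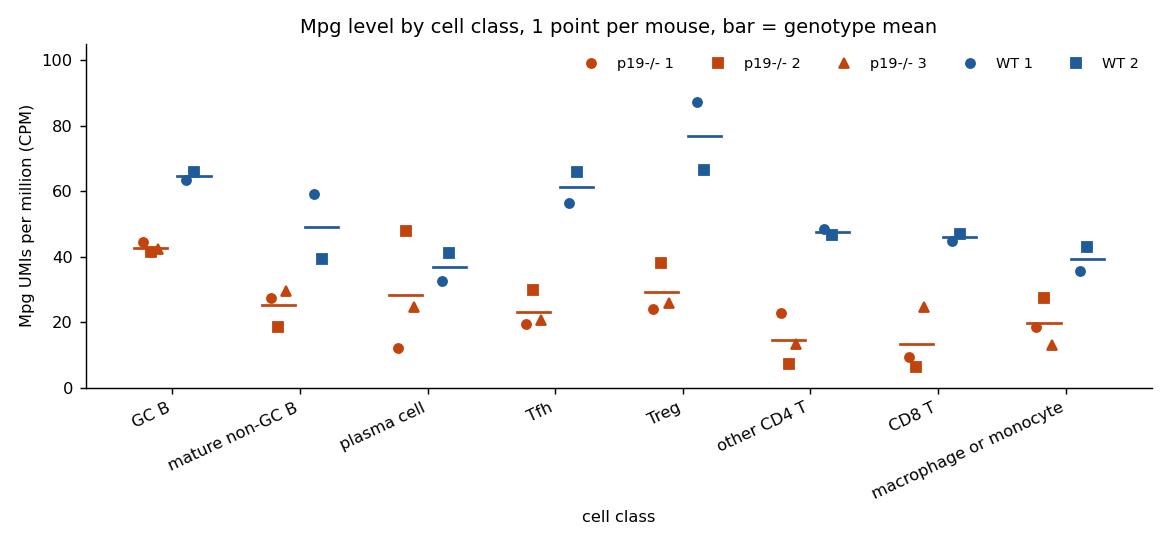
Level of Mpg (CPM) in 8 cell classes. Each point is 1 mouse, 3 p19-/- and 2 WT, and bars are genotype means. The p19-/- points lie below both WT points in 7 classes, and only in plasma cell-like cells does 1 p19-/- mouse, at 48.0 CPM, exceed them.

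Whether the gap differed between classes was tested as a class-by-genotype interaction with mouse as a block. For GC B-like minus CD4 T-like cells the difference of the 2 log2 fold changes was 0.85 ± 0.17 (edgeR, unadjusted p = 0.00032, adjusted p = 0.17), not called among 11094 genes, of which 0.0361% were. Without the filter on low counts it was called (0.80, adjusted p = 0.0084). For GC B-like minus mature non-GC B-like cells it was 0.33 ± 0.29, for GC B-like minus macrophage- or monocyte-like cells 0.28 ± 0.55, and for Tfh-like minus Treg-like cells -0.03 ± 0.30, none called (edgeR adjusted p = 1 each), in which 0.0305%, 0.263% and 0.187% of genes were called. No member was called in these 4 interactions by edgeR or DESeq2, and 2, 0, 2 and 0 members had an unadjusted p under 0.05 in edgeR's test, as did 5.74%, 3.42%, 5.48% and 5.95% of all genes.

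Inside GC B-like cells the Mpg gap was read in each stratum. In low-cycle cells Mpg stood at 16.0, 37.9 and 34.2 against 71.8 and 63.8 CPM (-1.08 ± 0.26), on 3 UMIs in p19-/- 1. In S-phase cells it stood at 49.6, 42.9 and 42.1 against 65.9 and 67.5 CPM (-0.61 ± 0.13), and in G2/M cells at 43.9, 40.4 and 44.0 against 59.8 and 64.9 CPM (-0.57 ± 0.12). At the dark end it stood at 41.3, 31.7 and 35.0 against 52.8 and 59.2 CPM (-0.67 ± 0.16), and at the light end at 48.0, 47.0 and 45.8 against 75.8 and 78.6 CPM (-0.74 ± 0.12). The groups did not overlap in any of the 5 strata, an arrangement found for 11%, 11.3%, 9.93%, 10.2% and 10.3% of all genes in the same order. Mpg was not called in any stratum by edgeR (adjusted p = 0.21 to 0.58), where 0.0561%, 0.0212%, 0.0306%, 0.056% and 0% of genes were called.

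Mpg lies on chromosome 11, at 32226505 to 32232702 of GRCm38.p6, and its annotated span overlaps that of Nprl3 by 740 bases, so that reads from the overlap are uncertain for both genes. Of its 5 annotated neighbours on each side, 5 could be tested in CD4 T-like cells and 1, Hba-a1, was called. Nprl3, an inhibitor of mTORC1 signalling, stood at 16.7 ± 3.26 CPM in p19-/- (SD, n = 3) and 25.1 ± 0.61 in WT mice (n = 2; edgeR -0.57 ± 0.19, adjusted p = 0.29), and in GC B-like cells at 15.4 ± 0.71 and 21.6 ± 0.54 (-0.52 ± 0.12, adjusted p = 0.37). In mature non-GC B-like cells, where Mpg was at -0.94, Nprl3 stood at 20.1 ± 8.10 and 13.9 ± 1.43 CPM (edgeR 0.42 ± 0.39, adjusted p = 0.98). Snrnp25, a minor spliceosome component on the other side, stood at 156 ± 24.3 and 103 ± 9.19 CPM in GC B-like cells (0.57 ± 0.14, adjusted p = 0.40), the opposite direction, and its log2 fold change was -0.28 ± 0.15 in CD4 T-like cells. Il9r, the interleukin-9 receptor gene and a further neighbour, is named here after its values were seen. In GC B-like cells it stood at 14.0 ± 7.05 CPM in p19-/- (SD, n = 3) and 1.89 ± 1.32 CPM in WT mice (n = 2), on 209 and 33 UMIs (edgeR 2.83 ± 0.56, adjusted p = 0.29). In mature non-GC B-like cells Il9r stood at 37.1 ± 13 and 1.07 ± 1.52 CPM, on 84 and 2 UMIs (edgeR adjusted p = 0.073). In CD4 T-like cells it had 26 and 18 UMIs (edgeR 0.34 ± 0.53, adjusted p = 0.88). The haemoglobin gene Hba-a1, a red cell marker nearly identical to Hba-a2, gave 13 UMIs in the p19-/- and 108 in the WT CD4 T-like cells (-3.20 ± 0.52, adjusted p = 0.014). Hba-a2 itself went the other way on few UMIs, 16 in the p19-/- and 5 in the WT CD4 T-like cells, and was not tested.

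The sum of red cell markers moved with the Mpg gap in CD4 T-like cells as a whole and in Tfh-like cells. Hba-a2 went the other way in Tfh-like cells too, with 10 UMIs in p19-/- and 3 in WT mice. The summed level of the 9 erythroid markers in CD4 T-like cells was 19.3, 6.29 and 4.48 CPM in p19-/- and 47.6 and 60.0 CPM in WT mice, with 8 of the 9 detected and 2 of the 2 tested markers called lower. In Tfh-like cells it was 15.5, 6.50 and 3.98 against 55.9 and 100.3 CPM, and in GC B-like cells 14.1, 15.4 and 6.52 against 24.7 and 5.39 CPM. In Treg-like cells the groups overlapped (22.05, 7.14 and 4.62 against 46.1 and 7.39 CPM), as they did in other CD4 T-like cells. With every cell that held a haemoglobin UMI left out, the Mpg fold change in CD4 T-like cells was -1.49 (edgeR adjusted p = 0.00035). Summed B cell markers in CD4 T-like cells were 173, 23.6 and 39.4 CPM in p19-/- and 75.5 and 27.7 CPM in WT mice, all 6 being detected. With T cells that held a UMI of Cd79a, Cd79b or Ms4a1 left out, the Mpg fold change was -1.45 (edgeR adjusted p = 0.00015). Without the male p19-/- 3, which leaves females only, it was -1.41 (edgeR adjusted p = 0.0036).

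The lower Neil1 and Neil3 of p19-/- mice were not called in any class. In GC B-like cells Neil1, with the values given above, was 321.5 ± 59.0 CPM in p19-/- (SD, n = 3) and 419 ± 2.09 in WT mice (n = 2). Both WT mice lay above all 3 p19-/- mice, with p19-/- 2 close to them at 386 CPM. The log2 fold change was -0.41 ± 0.14 (edgeR adjusted p = 0.53), and it ranged from -0.55 to -0.30 with 1 mouse left out. In strata of GC B-like cells it was -0.43 ± 0.20 in low-cycle, -0.46 ± 0.16 in S, -0.36 ± 0.12 in G2/M, -0.26 ± 0.17 at the dark and -0.63 ± 0.23 at the light end, none called (adjusted p = 0.62 to 0.96). At the dark end p19-/- 2, at 689 CPM, was above both WT mice.

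In CD4 T-like cells the Neil1 fold change was -0.02 ± 0.14 (edgeR adjusted p = 0.98), with values of 27.5 to 33.0 CPM in p19-/- and 29.2 to 30.5 CPM in WT mice. The groups overlapped there, as in Tfh-like (0.10 ± 0.19), Treg-like (-0.37 ± 0.29), other CD4 T-like (0.08 ± 0.42), mature non-GC B-like (-0.20 ± 0.49) and plasma cell-like cells (-0.35 ± 0.46). In CD8 T-like cells the p19-/- mice lay below the WT mice on 8 and 9 UMIs of Neil1, without a test. The interaction of GC B-like minus CD4 T-like cells was -0.40 ± 0.15 (edgeR, unadjusted p = 0.023, adjusted p = 0.81) and did not pass, so a difference between the 2 classes in the Neil1 gap was not shown.

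Neil3 in GC B-like cells was 37.3 ± 1.77 CPM in p19-/- (SD, n = 3) and 52.0 ± 2.04 in WT mice (n = 2), without overlap. Its log2 fold change was -0.50 ± 0.10 (edgeR unadjusted p = 0.0014, adjusted p = 0.29), and without 1 mouse it ranged from -0.55 to -0.45. By stratum the Neil3 gap was -0.48 ± 0.18 in S, -0.41 ± 0.13 in G2/M and -0.66 ± 0.16 at the dark end, in each of which the groups did not overlap. At the light end it was -0.12 ± 0.18, with 33.3, 24.1 and 32.9 against 32.7 and 32.5 CPM, and the groups overlapped. The difference between the ends in this gap was not tested. Between genotypes Neil3 was too sparse for a test in any class but GC B-like cells, with 25 UMIs in all CD4 T-like cells. In macrophage- or monocyte-like cells it gave 0 UMIs in each p19-/- mouse, which allows up to 7.99, 16.4 and 19.3 CPM (3 UMIs, counting error only), and 4 and 6 UMIs in the WT mice. The Neil3 interaction of GC B-like minus CD4 T-like cells was -0.41 ± 0.55 (edgeR adjusted p = 0.96) and rests on those 25 UMIs, so a difference in the Neil3 gap was not detectable there.

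**Figure D4:**
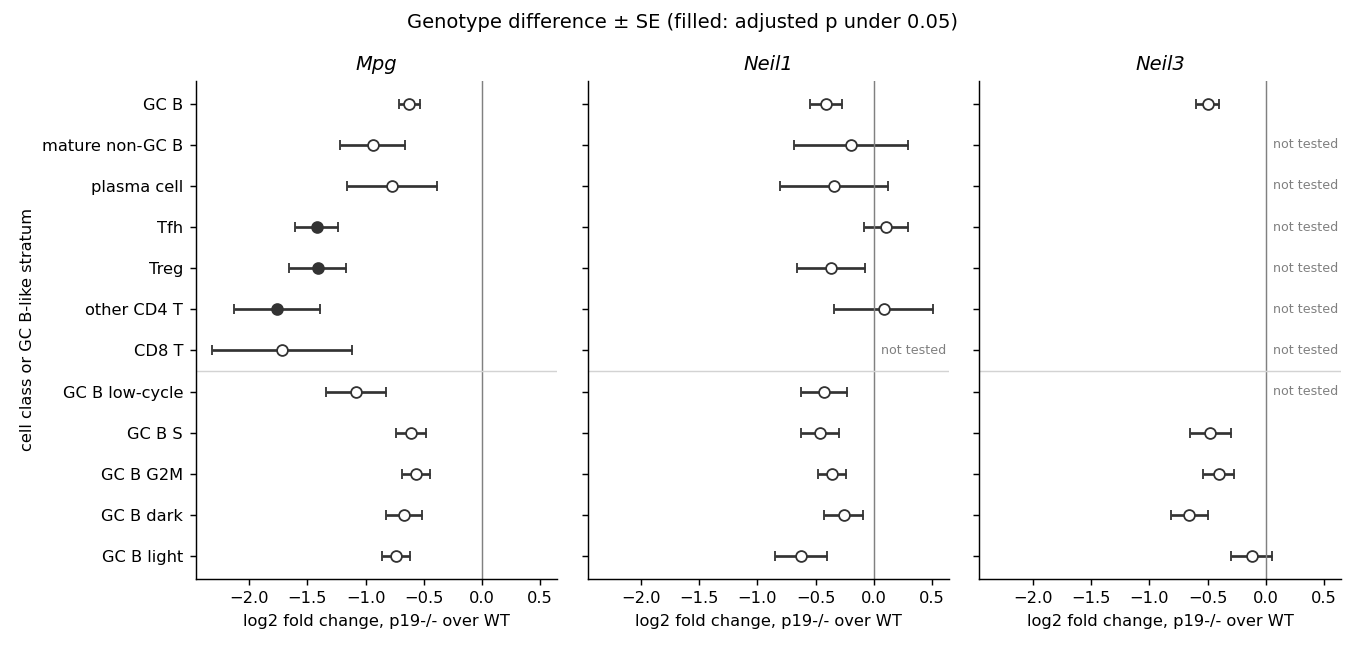
Log2 fold changes of Mpg, Neil1 and Neil3 between p19-/- and WT mice with their SE, in 7 cell classes (upper part) and 5 strata of GC B-like cells (lower part). Filled points had an adjusted p under 0.05, and classes below the count filter are marked as not tested. Mpg lies at -0.57 or below throughout, Neil1 lies at 0.10 in Tfh-like and -0.37 in Treg-like cells, and Neil3 could be tested in GC B-like cells and 4 of their strata.

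Of the other members none was called between genotypes in any class by edgeR or DESeq2. Mbd4, at -0.08 ± 0.14 in GC B-like and -0.21 ± 0.30 in CD4 T-like cells, and Ogg1, at -0.12 ± 0.16 and -0.33 ± 0.26, had overlapping groups in both. Tdg pointed up in GC B-like cells (0.14 ± 0.10), where all 3 p19-/- mice lay above both WT mice by small margins, an arrangement found for 16.1% of the genes tested there. In Treg-like cells Tdg stood at 38.1, 28.6 and 24.0 against 12.5 and 20.1 CPM (0.83 ± 0.35, edgeR unadjusted p = 0.030, adjusted p = 0.54), all p19-/- mice above both WT mice, as for 10.4% of genes there. No other base excision repair gene was called between genotypes in any class: of the 29, 21 pointed down in GC B-like cells with a median of -0.10 beside 0.0038 over all genes, and 18 pointed up in CD4 T-like cells. At an unadjusted p under 0.05 there were 4 and 5 of them, beside 8.39% and 10.4% of all genes.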

How the data were processed

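For each mouse the authors deposited a matrix of UMI counts per gene and cell barcode, raw and not normalized, made with 10x 5' chemistry. Per the submitters' processing notes, Cell Ranger 3.0.2 and STAR were run on mm10. The deposited tables of antibody gene contigs were not used here. The members and all gene lists were chosen with earlier results of these data known.

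Barcodes with at least 200 genes and at most 10% mitochondrial UMIs were kept, and 156 cells (1.67%) that Scrublet scored as doublets were removed. Cells were clustered with scanpy 1.11.5 (Python 3.11.15, leidenalg 0.10.2, igraph 0.11.9) on 2000 variable genes, with the members and other repair genes left out, and the 23 clusters were named from marker lists: 8392 of 9200 cells were named, 744 were not and 64 were set aside for low UMIs. Rebuilt names can differ from the study's own. Counts were summed per mouse and class, the mouse being the replicate. Tests were edgeR 4.0.16's quasi-likelihood F test in R 4.3.3 (TMM scaling, filterByExpr, Benjamini-Hochberg adjustment over all genes tested, threshold 0.05), with mouse as a block where classes, zones or stages of the same mice were compared. DESeq2 1.42.0 was an alternative. GC B-like sums held 3415297 to 11038473 UMIs per mouse. Folds against groups at 0 were not given. A share of cells has a Clopper-Pearson interval that covers counting error only. All 10 members are named in the text, and other base excision repair genes only where called, up to 4 per direction by size. Results of some other genes are not reported here. RefSeq windows were matched by symbol for 9 of the 10 members.

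Zone ends came from a score of fixed zone genes and stages from S and G2/M gene scores. Alternatives were other scalings and tools, other cell filters and cluster resolutions, sex as a covariate, the block, and each mouse left out.

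The fits were tested on simulated data for the GC B-like (10400 genes) and CD4 T-like (10006 genes) genotype comparisons. At a 2-fold change 58.3% and 61.8% of changed genes were recovered. The rates were 16.1% and 33.3% at a 1.5-fold change, and 87.3% and 96.6% at a 4-fold change. Of the genes called, 8.87% and 8.96% were false, more than the threshold allows. The simulations called 124 and 134 genes, where the mice gave 2 and 76. With fewer genes called the adjusted threshold is harder to pass, so these rates do not apply to members that were not called. Replicate numbers were not shown to pair the mice, so the genotype fits have no block.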

Additional observations from a re-analysis of the deposited data

Results flagged for a closer look

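In 2 members every p19-/- mouse lay below every WT mouse in at least 1 class and above in another. The difference between the classes was not tested for these pairs. Of tested genes, every p19-/- mouse was below every WT mouse for 3.07% in plasma cell-like, 10.3% in other CD4 T-like and 12.9% in macrophage- or monocyte-like cells, and above for 12.2% in mature non-GC B-like cells. Smug1 differed (p19-/- minus WT) by -3.08 CPM in plasma cell-like cells (0.516 against 3.60 CPM, 1 and 6 UMIs) and by 4.06 CPM in mature non-GC B-like cells (6.21 against 2.14 CPM, 15 and 4 UMIs). Mbd4 differed by -8.41 CPM in other CD4 T-like cells (2.88 against 11.3 CPM, 4 and 14 UMIs) and by -9.58 CPM in macrophage- or monocyte-like cells (7.52 against 17.1 CPM, 6 and 11 UMIs), and by 4.32 CPM in mature non-GC B-like cells (29.4 against 25.1 CPM, 77 and 47 UMIs). The Mbd4 value in mature non-GC B-like cells did not pass edgeR's quasi-likelihood test (0.22 ± 0.24 on the log2 scale, Benjamini-Hochberg adjusted p = 0.98), and the others, on few UMIs, were below the filter for a test.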

How the results depend on the processing

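Of 1238 values under alternative settings for 81 results, 1161 kept both direction and side of the threshold, 41 lost the call, 14 gained one and 22 changed sign. Without the filter on low counts calls were gained in GC B-like cells for Neil1 (-0.42, adjusted p = 0.0497), Neil3 (-0.51) and Mpg (-0.64, also -0.63 in DESeq2) and for the Mpg interaction of GC B-like minus CD4 T-like cells (0.80), so that 3 members were called between genotypes in GC B-like cells, and 1 in DESeq2. The genes called there numbered 2 in edgeR, 55 in DESeq2 and 200 without the filter, and in CD4 T-like cells 76, 69 and 374. With 1 mouse left out, Mpg ranged from -1.59 to -1.30 in Tfh-like, -1.62 to -1.20 in Treg-like and -2.18 to -1.47 in other CD4 T-like cells. In DESeq2 the Treg-like call was lost (-1.41, adjusted p = 0.053) and Mpg in other CD4 T-like cells got no adjusted p. The other CD4 T-like call was also lost at 20% mitochondrial UMIs (-1.67), at Leiden resolution 0.6 (-1.71) and with sex as a covariate (-1.71). Replicate numbers were not shown to pair the mice: deviations of same-numbered mice correlated at -0.06 and 0.03 in GC B-like and 0.04 and 0.07 in CD4 T-like cells. With the replicate block the genes called numbered 28 in GC B-like and 200 in CD4 T-like cells, Mpg was -1.72 in other CD4 T-like cells (call lost) and -1.14 in mature non-GC B-like cells (adjusted p = 0.015, call gained), and Neil1 changed sign in mature non-GC B-like (0.089) and CD4 T-like cells (0.024). No sign change was in a called result. With sex as a covariate Neil1 was 0.15 in mature non-GC B-like and 0.023 in CD4 T-like cells. With 1 mouse left out Neil1 ranged from -0.92 to 0.15 in mature non-GC B-like, -0.083 to 0.023 in CD4 T-like and -0.19 to 0.30 in other CD4 T-like cells, and Neil3 from -0.22 to 0.0079 at the light end. Among interactions, those of GC B-like minus mature non-GC B-like cells ranged from -0.51 to 0.38 for Neil1, and were 0.095 with doublets kept and 0.075 at resolution 1.6 for Neil3. Those of GC B-like minus macrophage- or monocyte-like cells were 0.22 with doublets kept and -0.73 to 0.98 with 1 mouse left out for Neil1, and -0.87 at resolution 0.6 for Mpg. The Neil3 interaction of GC B-like minus CD4 T-like cells ranged from -1.11 to 0.084, and the Mpg interaction of Tfh-like minus Treg-like cells from -0.33 to 0.31, with 0.018 with doublets kept and 0.029 at resolution 1.6. The cause of these changes was not tested. Zone ends of low-cycle cells alone were not tested, since p19-/- 1 had 9 cells in each. With 3 and 2 mice a group, most simulated 1.5-fold changes were missed, and Neil2, Mutyh, Nthl1 and Smug1 had too few UMIs for a genotype test in most classes.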
